A study of Mus musculus with 8 samples.

Results

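Fatty acid oxidation enzymes and other target genes of the nuclear receptor PPAR alpha were followed in the kidney of mice given cinacalcet hydrochloride, a calcium-sensing receptor agonist, for 5 days. The 38 genes were listed by symbol and found through the RefSeq accession of each probe. All 38 had a probe well above background on all 8 arrays, and they were read against 14209 tested genes. They comprise 2 regulators, 20 genes of mitochondrial proteins, 2 of cytosolic proteins, 7 of peroxisomal proteins, 3 microsomal omega-hydroxylases and 4 genes of surface, secreted or lipid droplet proteins.

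RNA of 4 kidney samples labelled cinacalcet was compared with that of 4 labelled control, each on its own one-colour array. According to the labels all animals were male and 12 weeks old, and the cinacalcet group received 1 mg per g of body weight while controls ate standard chow. Nothing in the labels ties each sample to a separate animal, so the p-values reflect only how these samples vary, which may in part be technical. Precision is limited by having 4 arrays in each group. Levels are log2 intensities relative to the 75th percentile of the same array, and are compared between arrays for 1 gene at a time, never between genes.

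PPAR alpha is a fatty acid-sensing receptor that, paired with RXR, switches on genes for uptake, activation and burning of fatty acids, and PGC-1 alpha (Ppargc1a) is a coactivator of this programme. Long-chain fatty acids enter mitochondria through the carnitine shuttle and are shortened by beta-oxidation, peroxisomes shorten very long chains, and microsomal Cyp4a enzymes hydroxylate the far end of the chain. The proximal tubule, which makes up most of the renal cortex, relies on fatty acid oxidation for energy.

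Before any comparison, 3 arrays differed from their labels, namely control 4, cinacalcet 2 and cinacalcet 3. None of the 4 measured Y-linked genes was well above background on them, against 3 or 4 on each of the other 5 arrays, although the labels call every animal male. Xist was at 0.95 on control 4, 0.46 on cinacalcet 2 and 0.73 on cinacalcet 3, and between -6.99 and -4.22 elsewhere. These 3 are called Y-negative and the other 5, which are 3 controls and 2 cinacalcet arrays, Y-positive. Results are given for all 8 arrays, for a fit that carries this split as a block (the Y-linked block), and for the Y-positive arrays alone. Of 13 proximal tubule markers 12 were well above background on every array and none passed between groups on all 8 arrays. Slc22a6 and Slc7a13 were lower with cinacalcet both with the Y-linked block (-0.43 and -1.61) and for the Y-positive arrays (-0.57 and -1.20), Miox was lower with the block (-0.32) and Acsm3 for the Y-positive arrays (-3.32). Their part in the results of those fits was not tested. The summed linear level of the 13 markers was weighted to bright probes such as that of Kap. It was 3354 to 4094 times the 75th percentile on control arrays and 2240 to 3470 times on cinacalcet arrays. The low sums were those of the Y-negative cinacalcet 2 and 3 (2240 and 2377), where Kap was at 8.09 and 8.45. Cinacalcet 1 and 4 had 3324 and 3470, near control 4 at 3354, and Kap was between 10.17 and 10.74 on the controls. None of 6 skeletal muscle markers passed the filter on dim probes.

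On all 8 arrays 4 of the 38 genes rose with cinacalcet, none fell and 34 did not pass. The threshold was an adjusted p under 0.05 in limma, with Benjamini-Hochberg adjustment over all 14209 genes, of which 8.02% passed, 3.37% higher and 4.64% lower. The 4 were Acot1, Acot2, Cyp4a10 and Cyp4a31, which encode thioesterases that release fatty acids from coenzyme A and omega-hydroxylases. The median log2 fold change over the 38 genes was 0.14, beside -0.03 over all genes tested, and 25 estimates were above 0 and 13 below. In whole kidney RNA, fewer cells of a type and less RNA per cell cannot be told apart. The control and cinacalcet arrays did not overlap for 4 genes that were higher (Acot1, Acot2, Cyp4a31 and Pex11a) and 2 that were lower (Acadm and Plin2). Over all genes 17.8% did not overlap, 8.01% higher and 9.80% lower.

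**Figure D1:**
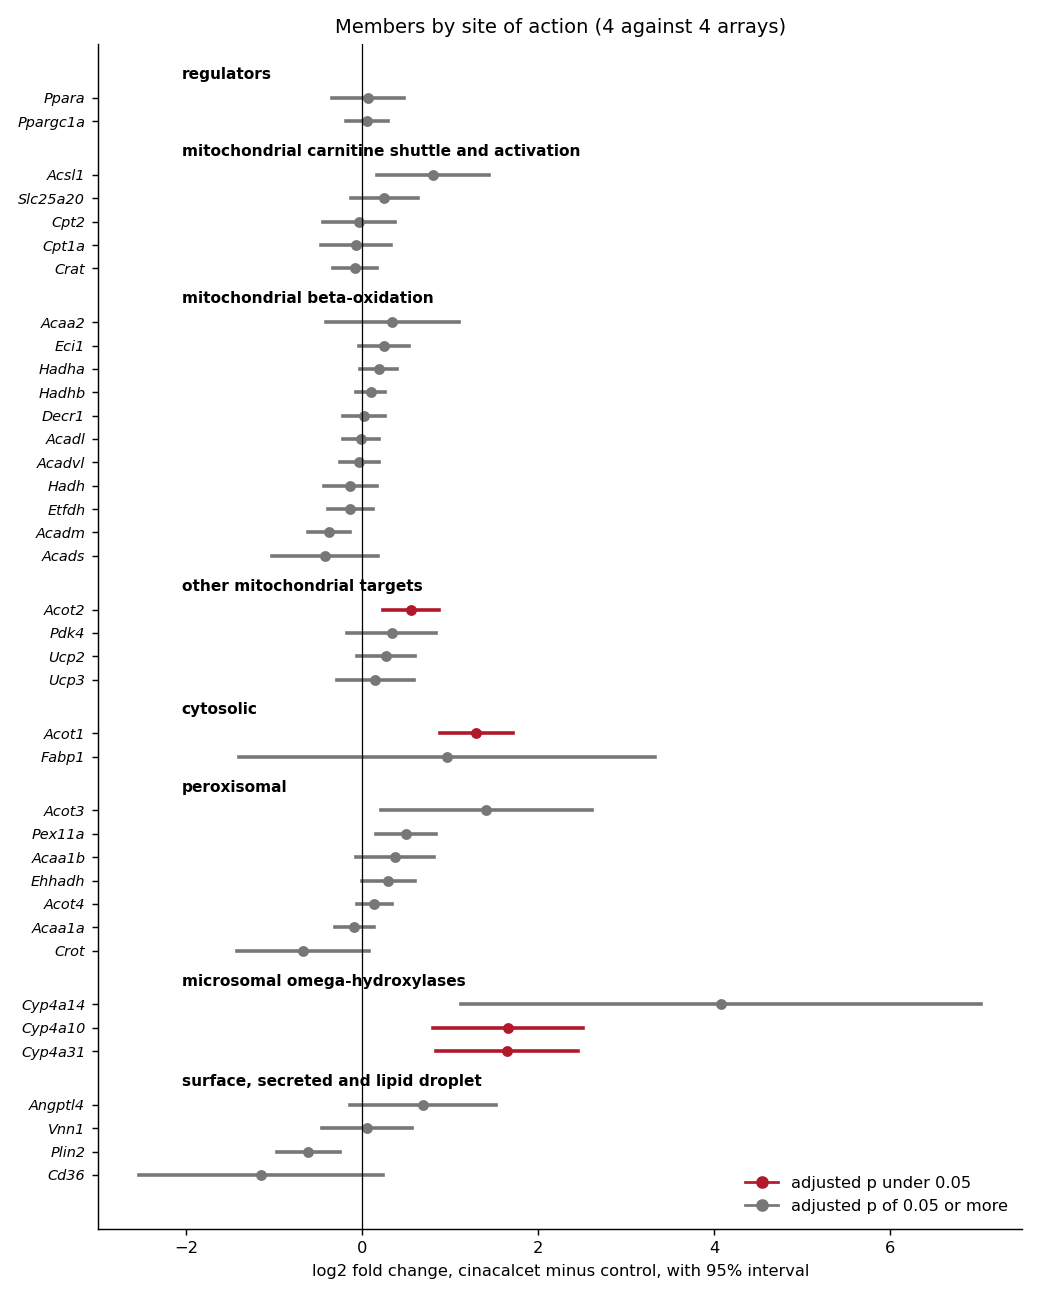
Log2 fold change of each of the 38 genes, cinacalcet minus control (horizontal axis), with its 95% interval from limma over 4 against 4 arrays, grouped by the site where the protein acts. Red marks the 4 genes past the threshold, which are Acot2, Acot1, Cyp4a10 and Cyp4a31, and Cyp4a14 has the widest interval, from 1.12 to 7.03.

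By site, the median log2 fold change was 0.06 for the 20 mitochondrial genes, 0.30 for the 7 peroxisomal genes and 1.66 for the 3 microsomal omega-hydroxylases. The number past the threshold was 1 of 20, 0 of 7 and 2 of 3, all higher. Both regulators stayed below the threshold, with a median of 0.06. These medians describe the classes, and differences between classes were not tested.

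The genes that encode cytosolic and other thioesterases lie side by side. In the RefSeq order of protein-coding genes on chromosome 12, Acot2, Acot1, Acot4, Acot3, Acot5 and Acot6 follow one another without a gene between them, and 4 of these 6 belong to the 38. The upstream sequences are shown for Acot1 and Acot2, which both rose, for Acot4, which lies beside Acot1 and did not pass, and for Fabp1 on chromosome 6, because Acot4 and Fabp1 hold the receptor-type motif searched here. Each run is the 250 bases before the annotated start on the plus strand of assembly GRCm38.p6 from RefSeq, in lower case, 5′ to 3′, with motif matches in capitals. The windows are chr12:84009252-84009501 for Acot1, chr12:83987611-83987860 for Acot2, chr12:84038129-84038378 for Acot4 and chr6:71199629-71199878 for Fabp1.
Acot1: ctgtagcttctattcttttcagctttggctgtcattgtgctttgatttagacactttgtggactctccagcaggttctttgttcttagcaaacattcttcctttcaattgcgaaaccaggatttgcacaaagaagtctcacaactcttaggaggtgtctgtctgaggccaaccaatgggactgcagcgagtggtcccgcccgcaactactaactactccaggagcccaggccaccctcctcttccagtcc
Acot2: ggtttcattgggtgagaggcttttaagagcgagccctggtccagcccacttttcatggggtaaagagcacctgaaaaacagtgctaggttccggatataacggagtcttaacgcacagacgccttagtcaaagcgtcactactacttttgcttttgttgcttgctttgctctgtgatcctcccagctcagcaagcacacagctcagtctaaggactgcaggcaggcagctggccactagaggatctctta
Acot4: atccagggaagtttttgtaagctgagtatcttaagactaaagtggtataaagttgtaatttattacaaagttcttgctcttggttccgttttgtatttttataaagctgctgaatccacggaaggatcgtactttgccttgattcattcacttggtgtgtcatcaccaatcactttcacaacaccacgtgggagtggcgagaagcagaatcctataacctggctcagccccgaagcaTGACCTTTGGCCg
Fabp1: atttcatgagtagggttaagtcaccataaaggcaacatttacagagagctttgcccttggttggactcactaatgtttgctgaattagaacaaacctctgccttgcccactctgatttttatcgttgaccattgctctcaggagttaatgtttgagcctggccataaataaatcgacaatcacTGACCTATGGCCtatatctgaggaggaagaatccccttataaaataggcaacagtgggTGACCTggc

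Of the 38 genes 30 had an upstream sequence in the RefSeq table. The letters AGGTCA, the element that many nuclear receptors bind, were searched on both strands and occurred in the windows of 8 of these 30 genes, namely Acadm, Acadvl, Acot4, Cd36, Cpt1a, Fabp1, Plin2 and Ucp3. Of all 32851 windows of that length, some of which belong to the same gene, 4607 (14.0%) held them, so this share is not one of genes. A direct repeat of that element, searched on both strands as 2 copies of GGNCA with the letters NA between them, is the spacing to which PPAR alpha and RXR bind. It occurred in 2 of the 30 genes and in 0.694% of all windows, and a match can overlap one of AGGTCA. The match was TGACCTTTGGCC in Acot4, starting 13 bases before the start, and TGACCTATGGCC in Fabp1, starting 67 bases before it, both on the minus strand. Neither motif was found in the windows of Acot1 and Acot2, which says only that these letters are not in these 250 bases.

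Acot1, the cytosolic long-chain acyl-CoA thioesterase, had levels of 4.62, 4.12, 4.25 and 4.84 on control arrays 1 to 4 and 5.69, 5.50, 5.77 and 6.06 on cinacalcet arrays 1 to 4. Every cinacalcet array lay above every control array, and control 4 was the highest control. Acot1 rose by a log2 fold change of 1.30 (SE 0.18, 95% interval 0.88 to 1.72), which is 2.46-fold, at a limma adjusted p of 0.0113. With Y-linked signal as a block it was 1.28 (adjusted p = 0.00798), and for the Y-positive arrays 1.54 (adjusted p = 0.0264). Among the Y-negative arrays, the 2 with cinacalcet averaged 0.80 above the lone control. Acot1 passed with any 1 of the 8 arrays left out, at adjusted p from 0.00726 to 0.0389. With slide column as a block its value was 1.20 (SE 0.27) and the call ended (limma adjusted p = 0.111), as it did for the other 3 genes. Columns were not balanced, since column 1 held only cinacalcet arrays and column 4 only controls. For every gene that estimate rests on control 3 against cinacalcet 2 and control 1 against cinacalcet 3. Both pairs set a Y-positive control against a Y-negative cinacalcet array, so slide column and the Y-linked split cannot be told apart there.

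Acot2, its mitochondrial counterpart, was at -1.44, -1.85, -1.74 and -1.62 on the controls and -1.06, -1.36, -1.20 and -0.80 on the cinacalcet arrays. The groups did not overlap. Acot2 rose by a log2 fold change of 0.55 (SE 0.14), or 1.47-fold, at an adjusted p of 0.0482. With single arrays left out it passed without control 4 only (adjusted p from 0.0397 to 0.132). Its value was 0.60 with the Y-linked block (limma adjusted p = 0.0243), 0.74 for the Y-positive arrays (0.0522) and 0.53 under quantile normalization (0.0505). It was 0.34 after normexp background correction with scaling to the 75th percentile (0.0587). With slide column as a block, which set Y-positive controls against Y-negative cinacalcet arrays, it was 0.31 (0.278).

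Acot3, a peroxisomal thioesterase, read 2.03, 1.70, 1.50 and 3.96 on the controls and 3.08, 3.87, 4.02 and 3.86 on the cinacalcet arrays. Control 4 lay inside the cinacalcet range and the other 3 controls below it. Acot3 had a log2 fold change of 1.41 (SE 0.52, adjusted p = 0.127) on all arrays and 1.11 (adjusted p = 0.073) with the Y-linked block. For the Y-positive arrays it was 1.73 (adjusted p = 0.0358), and for the Y-negative ones -0.01. Its pair of probes gave 1.41 each. Acot4, a peroxisomal thioesterase that also acts on dicarboxylic acid derivatives, had a log2 fold change of 0.14 (95% interval -0.06 to 0.34, adjusted p = 0.339). Acot5, the peroxisomal neighbour outside the 38 genes, rose 3.14-fold (log2 fold change 1.65, SE 0.26, adjusted p = 0.0141), and Acot6, the last of the row, had 0.17 (adjusted p = 0.527). A dimmer second probe of Acot5 gave 0.20. Thioesterase genes are similar in sequence, and probe sequences were not used here, so shared signal between them was not tested.

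**Figure D2:**
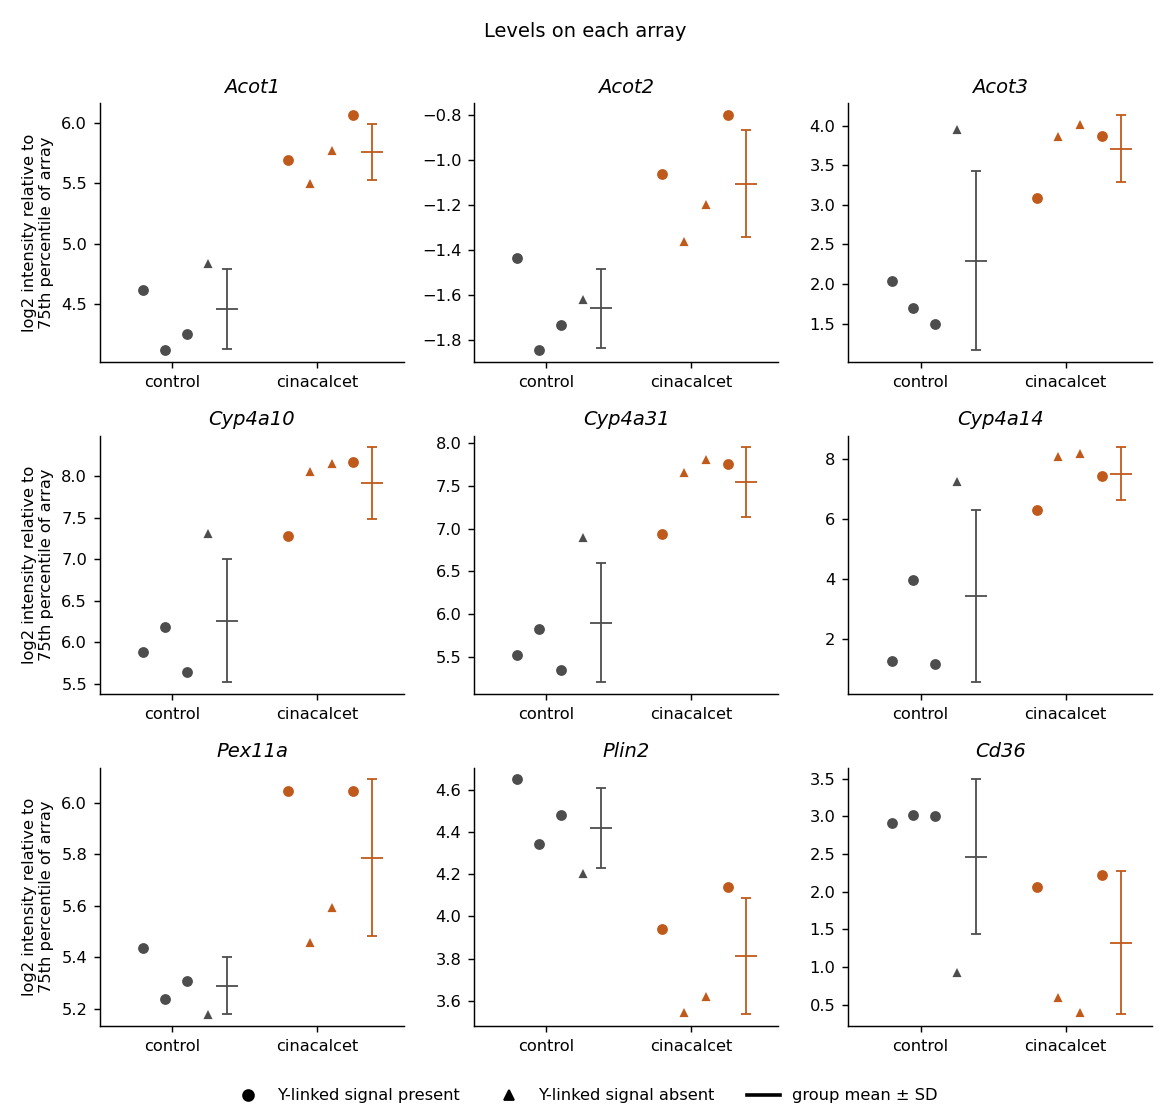
Levels of 9 of the genes on each array (vertical axis, log2 intensity relative to the array's 75th percentile), controls in grey and cinacalcet in orange, with circles for Y-positive and triangles for Y-negative arrays, and the group mean ± SD (n = 4) beside the points. Acot1, Acot2, Cyp4a31 and Pex11a, which were higher, and Plin2, which was lower, do not overlap between groups. The control triangle of Acot3, Cyp4a10, Cyp4a14 and Cd36 lies within the range of the cinacalcet arrays.

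The microsomal omega-hydroxylases start the route to dicarboxylic acids, and Cyp4a10 and Cyp4a14 are classical targets of PPAR alpha in liver and kidney. Cyp4a10 was at 5.88, 6.19, 5.64 and 7.31 on the controls and 7.28, 8.07, 8.16 and 8.17 on the cinacalcet arrays. The highest control, array 4, lay just above the lowest cinacalcet array. Cyp4a10 rose 3.16-fold (log2 fold change 1.66, SE 0.37, adjusted p = 0.0371). It was 1.45 with the Y-linked block (adjusted p = 0.0147) and 1.82 for the Y-positive arrays (adjusted p = 0.0381).

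Cyp4a31 was at 5.51, 5.82, 5.35 and 6.90 on the controls and 6.94, 7.66, 7.82 and 7.76 with cinacalcet. The groups were separated by the small gap between control 4 and cinacalcet 1. Cyp4a31 rose 3.13-fold (log2 fold change 1.65, SE 0.35, adjusted p = 0.0331), and the value was 1.45 with the Y-linked block (adjusted p = 0.0122). Both genes passed with control 4 or cinacalcet 1 left out and with none of the other 6 arrays left out, at adjusted p up to 0.102 for Cyp4a10 and 0.0957 for Cyp4a31. The 3 probes of Cyp4a10 gave log2 fold changes of 1.66 to 1.84, and the 3 of Cyp4a31 gave 1.57 to 1.65.

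Cyp4a14 had the highest fold change estimate of all 14209 genes and did not pass on 8 arrays. Its levels were 1.29, 3.99, 1.19 and 7.25 on the controls and 6.28, 8.08, 8.20 and 7.44 with cinacalcet. Control 4 lay above cinacalcet 1 and the other controls far below every cinacalcet array. The log2 fold change was 4.07 (SE 1.28, 95% interval 1.12 to 7.03, adjusted p = 0.0883). It was 3.34 with the Y-linked block (adjusted p = 0.0477), 4.71 for the Y-positive arrays (adjusted p = 0.0501), 0.89 for the Y-negative ones, and 5.35 with control 4 left out (adjusted p = 0.00961).

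On chromosome 4 the RefSeq order runs Cyp4a14, Cyp4a10, Cyp4a31 and Cyp4a32 without a gene between. Cyp4a32, which is not among the 38, rose by 1.76 on the log2 scale (adjusted p = 0.0295). These paralogs may share signal on the array, so the rises of Cyp4a10, Cyp4a31 and Cyp4a32 cannot be counted as separate observations. Cyp4a12a and Cyp4a12b, further members of the same cluster, read 4.78 to 4.94 and 5.33 to 5.59 on controls 1 to 3 but 0.62 and 1.19 on control 4. On cinacalcet arrays 1 to 4 Cyp4a12a read 3.77, 0.67, 0.52 and 3.95, and Cyp4a12b read 4.30, 1.01, 1.09 and 4.48. Among the Y-positive arrays both genes were lower with cinacalcet than on the controls, without overlap, which is opposite in direction to Cyp4a10, Cyp4a31 and Cyp4a32. The Y-negative arrays of both groups lay close together. Over all arrays the log2 fold changes of Cyp4a12a and Cyp4a12b were -1.58 (adjusted p = 0.431) and -1.67 (adjusted p = 0.411).

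The regulators gave no call. Ppara, the receptor gene itself, was at 4.91, 5.10, 5.13 and 4.64 on the controls and 4.83, 4.81, 4.92 and 5.49 with cinacalcet, and only cinacalcet 4 lay outside the control range. Its log2 fold change was 0.07 (95% interval -0.34 to 0.47, adjusted p = 0.835), and its 3 probes gave 0.01 to 0.09. Ppargc1a was at 3.80, 3.89, 3.86 and 4.12 on the controls and 3.81, 4.12, 4.07 and 3.89 with cinacalcet, with complete overlap. Its log2 fold change was 0.06 (95% interval -0.18 to 0.29, adjusted p = 0.758), and its dimmer probe gave 0.35.

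For the 5 genes of fatty acid activation and the carnitine shuttle no change passed on 8 arrays and the median log2 fold change was -0.04. Acsl1, which joins long-chain fatty acids to coenzyme A, read 5.08, 4.74, 4.90 and 5.89 on the controls and 5.47, 6.16, 6.32 and 5.87 with cinacalcet. Control 4 was at the level of cinacalcet 4 and above cinacalcet 1. Acsl1 had a log2 fold change of 0.80 (SE 0.28, adjusted p = 0.108). It was 0.62 with the Y-linked block (adjusted p = 0.024) and 0.76 for the Y-positive arrays (adjusted p = 0.0537). Slc25a20, the carnitine-acylcarnitine carrier, was at 0.41, -0.21, -0.13 and -0.02 on the controls and 0.32, 0.04, 0.13 and 0.57 with cinacalcet, and the groups overlapped (log2 fold change 0.25, adjusted p = 0.355). The outer and inner carnitine palmitoyltransferases Cpt1a and Cpt2 had estimates of -0.07 (95% interval -0.47 to 0.33) and -0.04 (-0.45 to 0.38), and carnitine acetyltransferase, Crat, had -0.08 (-0.33 to 0.17).

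The 11 genes of the mitochondrial beta-oxidation spiral had estimates from -0.42 to 0.34 with a median of -0.01, and none passed on 8 arrays. Acadm, the medium-chain acyl-CoA dehydrogenase, had the lowest p, with levels of 7.57, 7.59, 7.45 and 7.19 on the controls and 6.94, 7.10, 7.15 and 7.13 with cinacalcet. All cinacalcet arrays lay below all controls, of which control 4 was the nearest. For Acadm the log2 fold change was -0.37 (SE 0.10, adjusted p = 0.0656). It was -0.35 with the Y-linked block (adjusted p = 0.0566) and -0.50 for the Y-positive arrays (adjusted p = 0.0452). Eci1, an isomerase for unsaturated chains, was at 5.96, 5.79, 5.68 and 5.79 on the controls and 5.99, 5.94, 5.91 and 6.40 with cinacalcet, and control 1 lay within the cinacalcet range (log2 fold change 0.25, adjusted p = 0.222).

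The intervals of the other spiral enzymes were mostly narrow. For the very long-chain and long-chain dehydrogenases Acadvl and Acadl they ran from -0.25 to 0.19 and from -0.22 to 0.19, and for Hadha and Hadhb, the subunits of the trifunctional protein, from -0.03 to 0.40 and from -0.07 to 0.26. The hydroxyacyl-CoA dehydrogenase Hadh had -0.43 to 0.17, the electron transfer enzyme Etfdh -0.39 to 0.12 and the dienoyl-CoA reductase Decr1 -0.21 to 0.25. A second probe of Decr1 gave the opposite sign, at -0.20 against 0.02. The short-chain dehydrogenase Acads, at -0.42 (SE 0.26), and the thiolase Acaa2, at 0.34 (SE 0.33), were less precise.

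Among the other mitochondrial targets, Pdk4, the kinase that turns off pyruvate dehydrogenase, read 2.02, 1.64, 1.48 and 2.37 on the controls and 2.10, 1.90, 2.26 and 2.59 with cinacalcet. The groups overlapped and the log2 fold change was 0.33 (SE 0.22, adjusted p = 0.354). The uncoupling protein gene Ucp2 was at 1.21, 0.77, 0.88 and 0.74 on the controls and 1.02, 1.07, 1.12 and 1.50 with cinacalcet, and control 1 lay among the cinacalcet arrays (log2 fold change 0.27, adjusted p = 0.252). Its relative Ucp3 had an estimate of 0.15 (adjusted p = 0.633), and a second Ucp3 probe was above background on 0 arrays.

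None of the 7 peroxisomal genes passed on 8 arrays. Pex11a, which promotes peroxisome division, was at 5.44, 5.24, 5.31 and 5.18 on the controls and 6.04, 5.46, 5.59 and 6.05 with cinacalcet. The groups did not overlap, and the 2 cinacalcet arrays nearest the controls were the Y-negative ones. The log2 fold change was 0.50 (SE 0.15, adjusted p = 0.0791). With the Y-linked block it was 0.59 (adjusted p = 0.00952), for the Y-positive arrays 0.72 (adjusted p = 0.0264), and under quantile normalization 0.57 (adjusted p = 0.0438). It passed with no single array left out (limma adjusted p from 0.0718 to 0.183). With slide column as a block, which set Y-positive controls against Y-negative cinacalcet arrays, the value was 0.15 (adjusted p = 0.417).

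Of the remaining peroxisomal enzymes, the bifunctional protein Ehhadh had an estimate of 0.30 (95% interval -0.003 to 0.60), the thiolase Acaa1b 0.38 (-0.07 to 0.82) and its close paralog Acaa1a -0.09 (-0.31 to 0.13). Crot, which hands medium-chain products to carnitine, was at 4.59, 4.56, 4.66 and 3.22 on the controls and 3.86, 3.31, 3.36 and 3.80 with cinacalcet. Control 4 lay below all 4 cinacalcet arrays and the other controls above them. The log2 fold change of Crot was -0.67 on all arrays (adjusted p = 0.223) and -0.45 with the Y-linked block (adjusted p = 0.101). For the Y-positive arrays it was -0.77 (adjusted p = 0.0223).

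The genes of the cell surface, blood and lipid droplet had estimates of both signs and a median of -0.28. Plin2, which coats lipid droplets, read 4.65, 4.34, 4.48 and 4.21 on the controls and 3.94, 3.55, 3.62 and 4.14 with cinacalcet. All cinacalcet arrays lay below all controls. Plin2 had a log2 fold change of -0.61 (SE 0.15, adjusted p = 0.0508). It was -0.51 with the Y-linked block (adjusted p = 0.0131) and -0.45 for the Y-positive arrays (adjusted p = 0.0814).

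Angptl4, a secreted inhibitor of lipoprotein lipase, was at 6.16, 5.59, 6.03 and 5.61 on the controls and 7.07, 5.80, 5.95 and 7.34 with cinacalcet. The Y-positive cinacalcet arrays lay above all controls and the Y-negative ones among them. The log2 fold change was 0.69 on 8 arrays (limma adjusted p = 0.250) and 0.91 with the Y-linked block (adjusted p = 0.0331). It was 1.28 for the Y-positive arrays (adjusted p = 0.0339) and 0.26 for the Y-negative ones. With a block for slide column, which set Y-positive controls against Y-negative cinacalcet arrays, it was -0.22 (adjusted p = 0.363).

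Cd36, a fatty acid translocase, was at 2.91, 3.02, 3.00 and 0.93 on the controls and 2.07, 0.60, 0.41 and 2.22 with cinacalcet. Among Y-positive and among Y-negative arrays the cinacalcet values were the lower ones, while over all 8 arrays the groups overlapped. For Cd36 the log2 fold change was -1.14 on all arrays (adjusted p = 0.255), -0.69 with the Y-linked block (adjusted p = 0.0076) and -0.83 for the Y-positive arrays (adjusted p = 0.023). Vnn1, which encodes a pantetheinase that recycles the precursor of coenzyme A, had an estimate of 0.06 (95% interval -0.45 to 0.57).

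Markers of other cells moved between the groups beside these values. Of 8 blood and immune markers, the globin gene Hbb-bt, the erythroid enzyme gene Alas2 and the macrophage gene Adgre1 fell, with log2 fold changes of -2.53, -2.26 and -1.65. The neutrophil genes S100a8 and S100a9 rose, by 1.58 and 1.81, and Ptprc, Cd3e and Cd79a did not pass. The summed level of the 8, a linear sum weighted to the bright Hbb-bt probe, was 113 to 164 on the controls and 19.4 to 58.9 with cinacalcet. Of 14 adipocyte markers 11 were tested and 1, Ucp1, passed, lower. Their sum was 47.5 to 220 on the controls and 22.4 to 105 with cinacalcet, and 4 of the 14 also stand in the lists of fatty acid genes used here. Of 8 hepatocyte markers 7 were tested and 1, Ttr, was lower, with sums, weighted to the bright Cyp2e1 probe, of 69.7 to 566 and 70.8 to 608. The 4 of 6 adrenal markers that were tested summed to 10.1 to 15.4 on the controls, and the cinacalcet sums lay within that range. That sum is weighted to the bright Cyp17a1 probe. The dim Hsd3b1 was higher on every cinacalcet array than on any control (log2 fold change 1.67, adjusted p = 0.0592). With the Y-linked block it was 1.49 (adjusted p = 0.0459). Star, Cyp21a1 and Cyp17a1 had 0.36, 0.04 and -0.10 and did not pass in either fit. The part of these cells in the values of Plin2, Cd36 and the other genes was not tested.

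**Figure D3:**
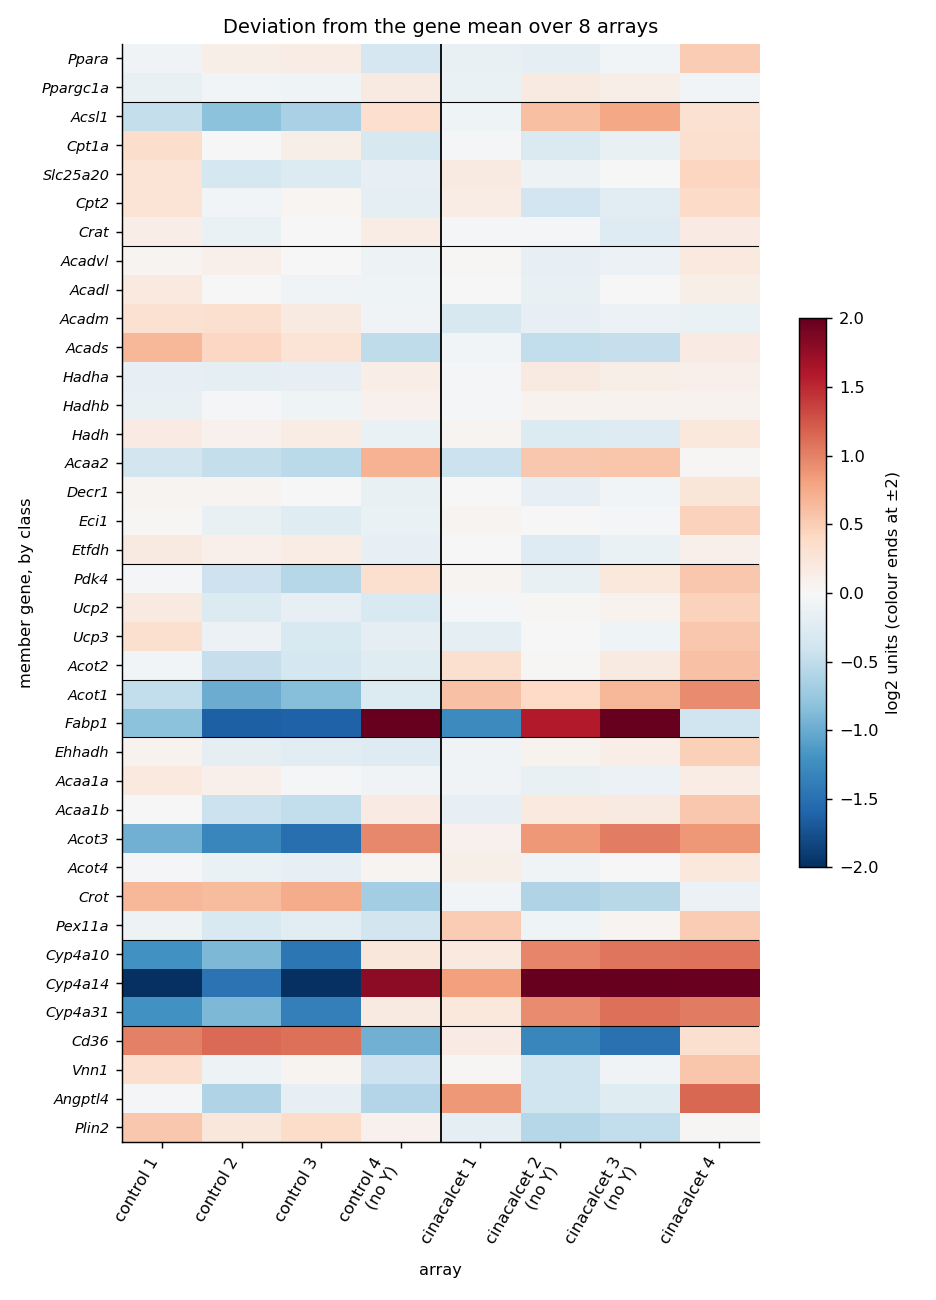
Deviation of each gene's level on each array from its mean over the 8 arrays (colour, log2 units, ending at ±2), genes in rows by class and arrays in columns, with the 3 Y-negative arrays marked "no Y". Control 4 differs from controls 1 to 3 in the direction of cinacalcet 2 and 3 for Fabp1, Acaa2, Crot, Cd36 and the Cyp4a genes, and Acot1 is below its mean on all 4 controls and above it on all 4 cinacalcet arrays.

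With the Y-linked block in the limma fit, 8 of the 38 genes were higher with cinacalcet and 2 lower. Of all genes 17.0% passed in that fit, 6.64% higher and 10.4% lower. The 8 were Acsl1, Acot2, Acot1, Pex11a, Cyp4a10, Cyp4a14, Cyp4a31 and Angptl4, and the 2 were Cd36 and Plin2. For the Y-positive arrays alone, 6 were higher and 3 lower, while 7.85% of all genes passed, 2.40% higher and 5.45% lower. Acot1, Pex11a, Cyp4a10, Cyp4a31 and Angptl4 were higher and Cd36 lower in both, while Acot3 was called higher, and Acadm and Crot lower, for the Y-positive arrays alone.

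The term for Y-negative minus Y-positive arrays, which is no treatment contrast, passed for 14 of the 38 genes, 4 higher and 10 lower on the Y-negative arrays. Of all genes 19.1% passed, 8.31% higher and 10.8% lower. Fabp1, a cytosolic fatty acid-binding protein best known from liver, had the highest estimate after the block, at 3.01 (SE 0.31, adjusted p = 0.00101). It was at -2.28, -3.08, -3.06 and 0.70 on the controls and -2.73, 0.14, 0.56 and -1.85 on the cinacalcet arrays. The 3 Y-negative arrays lay above 0 and the other 5 below -1, and the fold change with cinacalcet did not pass (log2 fold change 0.96, SE 1.03, adjusted p = 0.574). Of the 7 tested hepatocyte markers, Alb (1.14), Fgb (1.26) and Tat (0.38) were also higher on the Y-negative arrays, Apoa2 (-0.50) and Cyp2e1 (-3.16) were lower, and Serpina1a and Ttr did not pass. The part of hepatocyte RNA in the values of Fabp1 was not tested.

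Acaa2 at 0.93 (adjusted p = 0.00412), Acsl1 at 0.75 (adjusted p = 0.0118) and Ppargc1a at 0.26 (adjusted p = 0.0249) were also higher on the Y-negative arrays. The lowest estimates among the 10 genes that were lower there belonged to Cd36 at -1.81 (adjusted p = 8.05e-05), Angptl4 at -0.89, Crot at -0.88 and Acads at -0.71. The other 6 were Hadh, Cpt2, Cpt1a, Plin2, Pex11a and Etfdh, from -0.44 to -0.28. For the called Cyp4a genes the term was 0.83 (Cyp4a10, adjusted p = 0.0771) and 0.80 (Cyp4a31, adjusted p = 0.0706), and for Acot1 0.08 (adjusted p = 0.798).

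**Figure D4:**
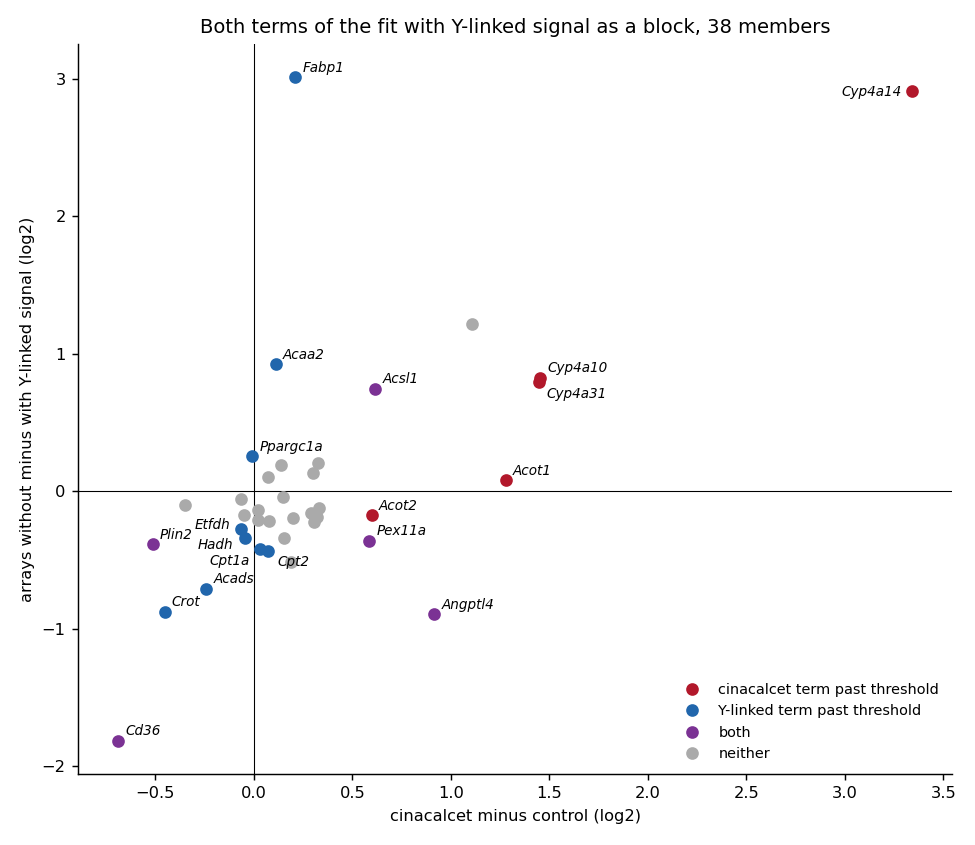
For each of the 38 genes, the cinacalcet term (horizontal axis, log2) against the term for Y-negative minus Y-positive arrays (vertical axis, log2), both from 1 limma fit with 8 arrays, coloured by which term passed an adjusted p of 0.05. Acot1 lies far to the right at 0.08 on the vertical axis, Fabp1 at 3.01 near the vertical axis, and Cd36 is low on both terms.

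Whether the response to cinacalcet differed between Y-positive and Y-negative arrays was tested as an interaction in limma, with 1 Y-negative control. None of the 14209 genes passed, and 1814 had an unadjusted p under 0.05. Of the 38 genes 9 had an unadjusted p under 0.05, and the lowest belonged to Crot, whose interaction was 0.89 (unadjusted p = 0.000198, adjusted p = 0.148). For Cyp4a14 it was -3.82 (adjusted p = 0.375) and for Acot3 -1.75 (adjusted p = 0.316).

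Beyond the 38 genes, 153 other genes of the same pathways were listed and 147 tested, of which 3 rose, 6 fell and 138 did not pass, with a median log2 fold change of -0.06. With the Y-linked block 11 were higher and 21 lower, and for the Y-positive arrays 6 were higher and 15 lower. Of all genes 8.02% passed in the fit without covariates, 17.0% with the block and 7.85% for the Y-positive arrays. In the fit without covariates the number of calls in these lists did not stand out. With the block and for the Y-positive arrays their share was above that of all genes, and the difference was not tested. The genes below are given as single values from the fit without covariates. By list, 1 of 21 nuclear receptors and coregulators rose, namely Nrf1, a factor for mitochondrial genes (log2 fold change 0.47, adjusted p = 0.0307). Of 30 further mitochondrial genes 1 fell, the medium-chain acyl-CoA synthetase Acsm1 (-0.82, adjusted p = 0.0307), and of 44 further peroxisomal genes 1 rose, Acot5. Among 14 further microsomal genes Cyp4a32 rose and the fatty aldehyde dehydrogenase Aldh3a2 fell (-0.70, adjusted p = 0.0471).

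Of 20 further genes of uptake, binding and lipid droplets, 1 fell, the fatty acid-binding protein gene Fabp3 (-0.28, adjusted p = 0.0443). In ketone metabolism 2 of 7 genes fell. Oxct1, which activates ketone bodies for oxidation, was at 7.76, 7.93, 7.80 and 7.67 on the controls and 7.31, 6.95, 7.02 and 7.04 with cinacalcet, without overlap (log2 fold change -0.71, SE 0.10, adjusted p = 0.0113), and passed with any 1 array left out. Bdh1, which interconverts the ketone bodies, fell by 0.76 on the log2 scale (adjusted p = 0.0382). Of 11 genes around pyruvate dehydrogenase 1 fell, the kinase Pdk3 (-0.97, adjusted p = 0.0465).

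**Figure D5:**
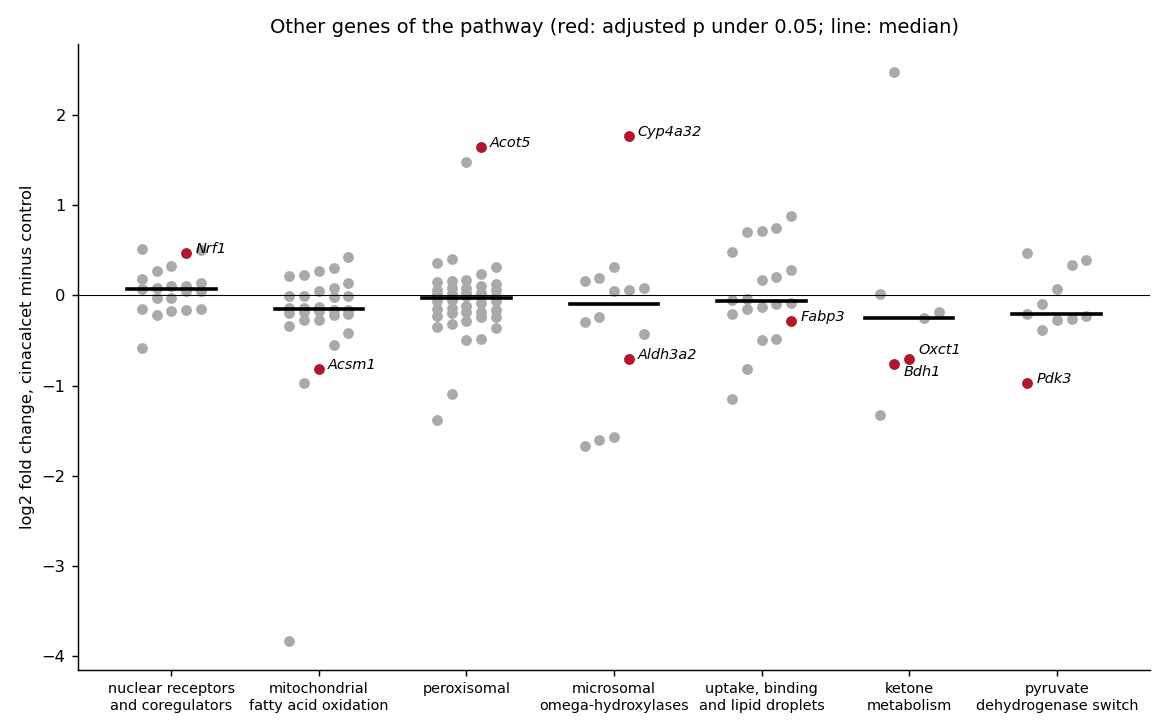
Log2 fold change, cinacalcet minus control (vertical axis), of the 147 tested genes of the same pathways outside the 38, 1 point a gene, by list (horizontal axis), with a line at each list's median. The 9 red points are the genes past an adjusted p of 0.05, 3 above 0 and 6 below.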

How the data were processed

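Cy3-labelled kidney RNA was run on 8 one-colour Agilent arrays, all on 1 slide per the file headers. The deposited files hold the scanner's spot intensity on a linear scale, background-corrected by Feature Extraction 11.0.1.1 per the file headers, whereas the submitters' processing notes name version 9.5. Control spots and 118 to 147 outlier spots per array were left out, spots of a probe were averaged, and each array's 75th percentile (202.9 to 257.1) was subtracted after log2. Between 51.8% and 58.0% of spots were well above background. Probes were named by accession through RefSeq (GRCm38.p6), which named 27235 of 55681. Probes above background on at least 4 arrays were kept and the brightest stood for its gene. Of 51 probes of the 38 genes 50 were kept, and 9 genes had several, which gave the same sign for 8.

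Groups were compared with limma 3.58.1 (lmFit, eBayes, R 4.3.3), without covariates, over 14209 genes with Benjamini-Hochberg adjustment. The 38 genes, the further lists and the marker lists were chosen with earlier results of these data known. Array values are printed for genes past the threshold, the regulators and up to 2 further genes per class by lowest p. Of the other pathway genes, those past the threshold are named. Those of Cd36, Crot and Oxct1, and the non-members Cyp4a12a, Cyp4a12b and Acot6, were added after their values were seen. The fit was tested on simulated data. The 24 alternative settings cover scaling, background correction, filters, the variance model, blocks and leaving out arrays, and the terms for Y-linked signal and their interaction were added after seeing the data. Normexp used the median signal with an offset of 50.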

Additional observations from a re-analysis of the deposited data

Results flagged for a closer look

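In 11 gene and group combinations, of 94 checked with 4 arrays each, 1 array lay far from the other 3 by the ratio of its gap to the group's range. Chance alone flags about 1 in 20 such groups. Control 4 accounted for 5 of the 11, and it is the control array without Y-linked signal. It was high for Acaa2, at 6.73 against 5.49 to 5.67 (ratio 0.857), and for Hadha, at 2.44 against 2.11 to 2.14 (0.896). It was low for Cd36 (ratio 0.946), Crot (0.926) and Pdk3 (0.965).

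Cinacalcet 1 accounted for 4. It was low for the omega-hydroxylase genes Cyp4a10 (ratio 0.887) and Cyp4a32 (0.846), for Acot3 (0.835) and for Hadhb, at 5.64 against 5.73 on the others (0.965). Cinacalcet 4 was high for Acot5 (ratio 0.892) and Eci1 (0.838). No cause was tested.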

How the results depend on the processing

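Across 1128 values of 47 genes under other settings none past the threshold changed sign. At some setting 14 genes changed sign, and these passed neither there nor in the fit without covariates on 8 arrays. The count of the 38 genes past the threshold was 4. That count is given below with the share of all genes that passed, which was 8.02% on 8 arrays. It was 7 with normexp and quantile normalization (10.9%) and 1, Acot1, without a filter on dim probes (1.78%). With array weights, which gave control 4 the lowest weight (0.219), it was 18 (38.3%). It was 0 with slide column as a block (0.239%), which set Y-positive controls against Y-negative cinacalcet arrays. The count was 0 within slide row 1 (0.00704%) and 0 within slide row 2 (0%). With the Y-linked block it was 10 (17.0%) and for the Y-positive arrays alone 9 (7.85%). Leaving out each array gave 1 to 13, with 13 without control 4, where 23.6% of all genes passed. All 4 genes called on 8 arrays were part of these 13. For the other pathway genes the count of 9 became 14 with normexp and quantile normalization and 2 without a filter. With trend and robust eBayes it became 15, where 9.7% of all genes passed. It was 73 with array weights, 0 with the column block, 0 in row 1, 0 in row 2, 32 with the Y-linked block and 21 for the Y-positive arrays alone. Leaving out each array gave 2 to 43. All genes called numbered 5438 with array weights, 34 with the column block, 1 in row 1, 0 in row 2 (limma, with 1068 at an unadjusted p under 0.05) and 3356 without control 4, against 1139 on 8 arrays, 367 without a filter, 218 to 320 without 1 of controls 1 to 3, 278 and 292 without cinacalcet 3 and 2, and 533 without cinacalcet 4. The cause of these shifts was not tested.

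With the replicate number as a block, 0 of the 38 genes, 0 of the other pathway genes and 0 of all 14209 genes passed in limma, with 2869 at an unadjusted p under 0.05. Deviations of same-numbered arrays from their group means correlated at 0.34, -0.54, -0.36 and -0.56. The pairs numbered 2, 3 and 4 each joined a Y-positive with a Y-negative array. Every such mix of a control and a cinacalcet array correlated negatively, so these values cannot show or exclude a pairing by number. The numbers were not taken to pair the samples.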

Other observations

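The 5 named genes whose levels over the 8 arrays correlated most closely with Acot1 were Ccdc9b (Pearson r = 0.998), Acot5 (0.990), the aldosterone- and glucocorticoid-responsive kinase gene Sgk1 (0.988), the transcription factor gene Pou2f1 (0.984) and Ktn1 (0.983). All 5 passed in limma in the comparison with cinacalcet, with log2 fold changes from 0.33 to 1.65, and the arrays they share include that contrast, so the correlations describe likeness of pattern only.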
